A study of Homo sapiens with 8 samples.

Results

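The 10 genes described here encode surface receptors by which monocytes and macrophages are recognised: CSF1R, CSF2RB, CSF3R, FCGR1A, FCGR2A, CD14, CD86, CD68, CD163 and MRC1. They are 10 of 20033 annotated protein-coding genes and were chosen by name, with earlier results of these data known. Every open-chromatin peak that overlapped a gene's body or the 50 kb on either side was taken (hg38, GENCODE release 44). Overlapping peaks were joined to 149 regions, out of 161291 in the whole series, of which 134540 lie within 50 kb of some protein-coding gene. The peaks come from ATAC-seq, which reads out accessible DNA through the cuts of a transposase, and the cells were U-937, an established human leukaemia line of monocytic type. Cells received DMSO, the vehicle, all-trans retinoic acid (ATRA) at 0.1 µM, Corin at 0.1 µM, or both compounds at 0.1 µM each, and were collected after 24 h. Each treatment had 2 samples, 8 in all, and there is 1 peak list per treatment. That a list combines both samples is read from the number of lists and their names. All groups share the same line and the labels name no engineered allele.

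Retinoic acid binds nuclear receptors that sit on DNA as dimers and switch from repressing to activating when the ligand arrives, and it drives maturation of several myeloid leukaemia lines. Corin is a synthetic compound that inhibits both enzymes of the CoREST complex, the histone demethylase LSD1 and the histone deacetylases HDAC1 and HDAC2, which remove marks of active chromatin. In monocytes, the colony-stimulating factor receptors carry survival and differentiation signals, the Fc receptors bind antibody-coated particles, CD14 presents lipopolysaccharide to the Toll-like receptor, CD86 co-stimulates T cells, and CD68, CD163 and MRC1 mark phagocytic macrophages.

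The summit sequences of 6 regions are shown because the differences between lists described below turn on them. Each is the plus strand of hg38 in the 200 bases around the strongest summit, with annotated UTR bases left out at CD86 and CSF1R. Capitals mark matches to the searched motifs: TGTGGT, the RUNX core, in CD86 and, on the opposite strand, in CSF1R; TTGCNNAA, a C/EBP consensus, on the opposite strand in the CD163 exon region and on the plus strand downstream of CSF2RB; and TGANTCA, an AP-1 consensus, in the CD163 exon region.
CD86 start, chr3:122055281-122055361: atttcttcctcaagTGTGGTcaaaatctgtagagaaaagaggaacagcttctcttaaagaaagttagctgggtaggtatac
CSF1R start, chr5:150086608-150086673: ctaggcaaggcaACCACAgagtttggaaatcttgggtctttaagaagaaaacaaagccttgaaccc
CD163 upstream, chr12:7542891-7543090: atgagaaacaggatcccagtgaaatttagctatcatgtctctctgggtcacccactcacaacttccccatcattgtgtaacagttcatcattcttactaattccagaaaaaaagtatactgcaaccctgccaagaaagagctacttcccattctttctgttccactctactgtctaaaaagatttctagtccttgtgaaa
CD163 exon, chr12:7498829-7499028: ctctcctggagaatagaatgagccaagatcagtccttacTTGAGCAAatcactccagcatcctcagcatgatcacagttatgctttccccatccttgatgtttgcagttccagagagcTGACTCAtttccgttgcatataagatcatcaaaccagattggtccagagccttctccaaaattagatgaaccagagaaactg
CSF2RB intron, chr22:36921527-36921726: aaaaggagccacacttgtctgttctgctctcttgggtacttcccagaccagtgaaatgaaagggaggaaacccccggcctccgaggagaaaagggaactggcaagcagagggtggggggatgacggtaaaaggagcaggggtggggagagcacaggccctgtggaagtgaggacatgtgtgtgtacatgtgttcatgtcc
CSF2RB downstream, chr22:36965785-36965984: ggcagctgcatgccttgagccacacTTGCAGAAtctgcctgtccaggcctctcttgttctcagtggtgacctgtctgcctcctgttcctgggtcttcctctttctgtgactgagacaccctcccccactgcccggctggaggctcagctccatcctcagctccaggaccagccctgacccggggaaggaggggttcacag
The CD163 upstream and CSF2RB intron windows held none of the searched motifs.

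The lists give no value per sample, so no difference below has a test, and the spread between cultures is unknown. Intervals are 95% and cover counting error only. The fold of a region is the deposited ratio of its highest summit over the local background, and its pileup is the number of reads or fragments there, recovered from the deposited fold and p. Over the 66303 regions held by all 4 lists, the log2 fold of ATRA lay 0.31 above DMSO in the median, that of Corin was -0.09 and that of the combination 0.04 relative to DMSO. The combination was -0.29 relative to ATRA and 0.12 relative to Corin. The ratios of folds below are divided by these medians and called centred ratios. A region is called higher or lower at a centred ratio of at least 1.5 times, and gained or lost when only 1 of the lists compared holds it. A list leaves out signal under its caller's limit, so a lost region is one not called, not one shown to be closed. The most frequent local background was 12.8, 9.1, 13.1 and 13.9 in DMSO, ATRA, Corin and the combination, and the lists had 116563, 113914, 101851 and 94917 regions; the part of these differences in the results was not tested. In bulk samples, fewer cells with an open region and less opening per cell cannot be told apart. As a check of identity, 7 of 8 myeloid marker genes had a region within 1 kb of their start in DMSO, MPO being the exception, with summed folds of 77.9, 96.0, 73.3 and 84.1 in the order above. For other lineages the DMSO list held such a region at 1 of 4 T cell, 2 of 3 B cell, 0 of 4 erythroid, 1 of 4 epithelial and 2 of 3 fibroblast genes. The summed folds of these also differed between DMSO and ATRA, at 14.2 and 24.8 for the B cell genes and 18.6 and 24.8 for the fibroblast genes, and CD79A was called higher in ATRA with a centred ratio of 1.78; their part in the results was not tested.

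The windows differed widely in how many regions they held. CSF1R had the most regions, 27, followed by CD14 with 21, FCGR2A with 20, CSF2RB with 18, and CD86 and CSF3R with 17 each. CD68 had 11, FCGR1A 8, CD163 7 and MRC1 3. The median of the 10 genes was 17.0 and that of all protein-coding genes 14. CSF1R had 23, 19, 20 and 16 regions in DMSO, ATRA, Corin and the combination, and CSF2RB had 13, 14, 11 and 8, so both had fewest in the combination, as did the median coding gene with 10, 10, 9 and 8. CD14 went the other way, with 13, 15, 16 and 18. CD86 had 12, 14, 11 and 15, with more in both lists that include ATRA.

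**Figure D1:**
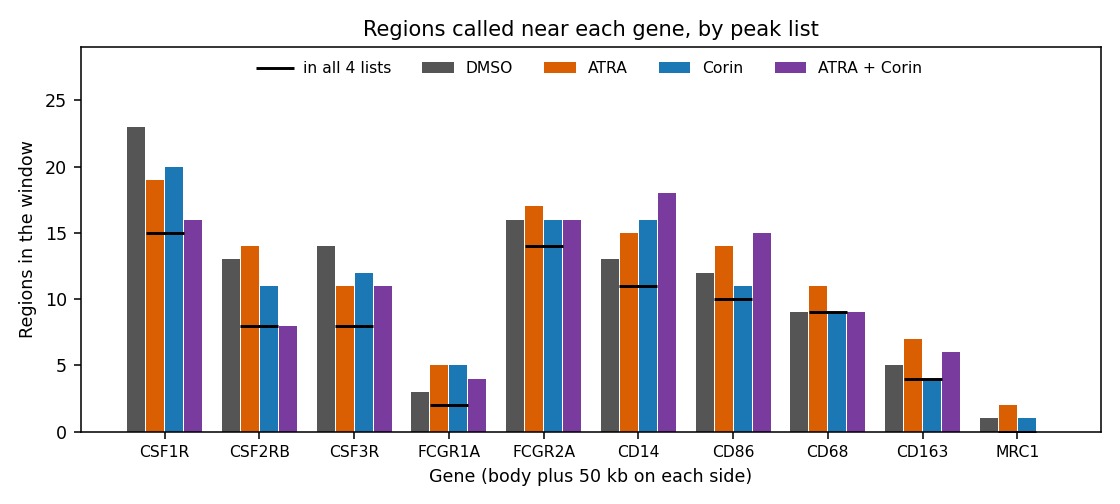
Number of regions called in each gene's window (bars, 1 per peak list; black dashes, regions in all 4 lists). CSF1R had 23 regions in DMSO and 16 in the combination, CD14 had 13 and 18, and MRC1 had at most 2 in any list.

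At the transcription starts, the genes fell into those that differed between lists, those that did not pass the limit, and those without a call. A region within 1 kb of the canonical start was called for 8 of the 10. CSF1R, the receptor for CSF1 and IL34, had folds of 2.69 (2.25 to 3.19) in DMSO, 9.40 (8.61 to 10.2) in ATRA, 1.91 (1.58 to 2.30) in Corin and 5.18 (4.58 to 5.83) in the combination. Both lists with ATRA were above both lists without it, with no overlap of the intervals. The centred ratio over DMSO was 2.82 with ATRA, 0.756 with Corin and 1.88 with both, and that of the combination over Corin was 2.50. The combination stood at 0.672 of ATRA. In the DMSO list this start ranked at percentile 2.91 by fold among the regions in all 4 lists, and in the ATRA list at percentile 36.6.

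CD86, a ligand of CD28 and CTLA4, had a different order at its start: 8.12 (6.69 to 9.76) in DMSO, 19.9 (17.2 to 22.8) in ATRA, 15.5 (13.6 to 17.7) in Corin and 16.3 (14.5 to 18.3) in the combination. All treated lists were above DMSO, and their intervals overlapped one another. The centred ratios were 1.98, 2.03 and 1.96, so the combination was no higher than either compound alone. On the log2 scale the combination lay at -1.03 relative to the sum of the single changes.

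CD163, the haemoglobin-haptoglobin scavenger receptor, had start folds of 5.44 (4.28 to 6.81), 10.1 (8.23 to 12.2), 8.41 (7.04 to 9.97) and 10.6 (9.08 to 12.2) in the same order. DMSO was lowest. The centred ratio was 1.497 for ATRA, just under the limit, 1.64 for Corin and 1.89 for the combination.

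CSF3R, the G-CSF receptor, was the member whose start was called lower, in ATRA. Its folds were 7.83 (7.18 to 8.52), 6.25 (5.82 to 6.72), 7.49 (6.84 to 8.19) and 5.89 (5.45 to 6.36), and both lists with ATRA were below the others. The centred log2 ratio of ATRA over DMSO was -0.63, but the direction turned, to 0.39, when pileups were compared in place of folds: the pileup was 536 in DMSO and 760 in ATRA, so the local background was higher there too. No direction is therefore given for this start.

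At the other called starts no centred ratio over DMSO reached 1.5 in either direction. CSF2RB, the shared beta subunit of the GM-CSF, IL3 and IL5 receptors, had the strongest start, with folds of 19.0, 18.4, 19.1 and 21.0. FCGR2A, an activating Fc gamma receptor of low affinity, had 13.7, 14.4, 10.0 and 11.2. Its centred ratios over DMSO were 0.847 with ATRA, 0.775 with Corin and 0.794 with both. CD68, a glycoprotein of lysosomes and endosomes, had 7.08, 7.87, 6.74 and 6.18. FCGR1A, the high-affinity Fc gamma receptor, had a region near its start in Corin alone, with a fold of 4.32 (3.31 to 5.53) from a pileup of 60. No list held a region within 1 kb of the CD14 or MRC1 start.

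Of the 7 starts in both lists, 2 were higher and 1 lower in ATRA, where 2.93% and 2.88% of all coding genes' starts were; the lower one is CSF3R, whose centred log2 ratio turned to 0.39 by pileup. In Corin 2 were higher and 0 lower, against 1.35% and 1.14%. In the combination 3 were higher and 0 lower, against 2.16% and 1.39%. These calls use the highest peak of each start region. By the mean over a region's peaks, the centred log2 ratio of the combination fell from 0.91 to 0.43 at CSF1R. At CD163 it fell from 0.92 to 0.22, so both went under the limit. The ATRA value at CSF1R fell from 1.5 to 0.83, still past it. Other values rose past the limit: ATRA at CD163, from 0.58 to 0.64, and Corin at CD68, from 0.02 to 0.65.

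**Figure D2:**
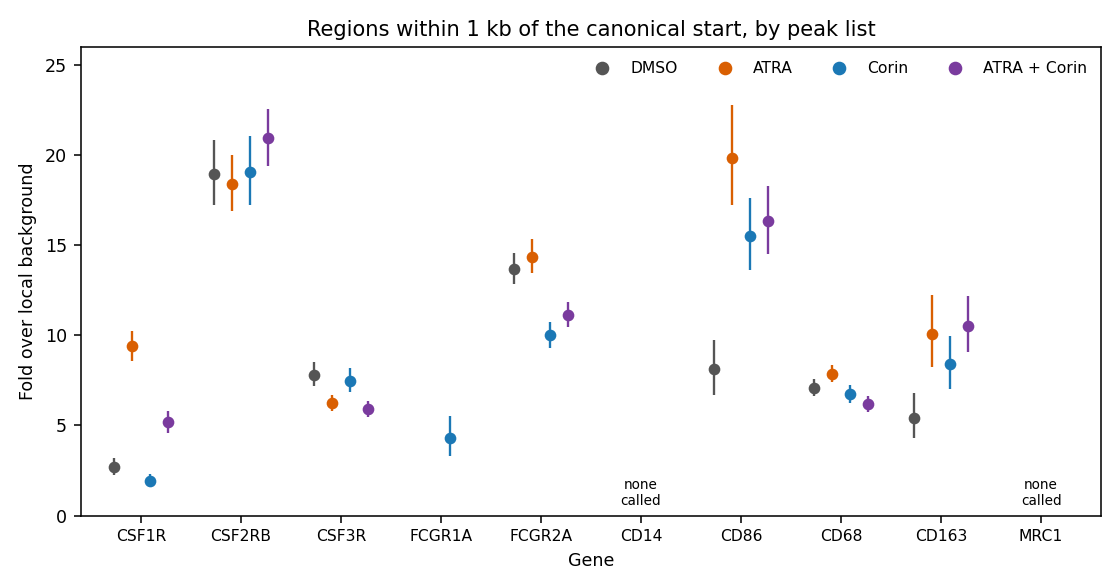
Fold over local background of the region within 1 kb of each gene's canonical start (points, 1 per peak list; bars, 95% Poisson intervals of the pileup). CSF1R was highest in ATRA at 9.40, all 3 treated lists were above DMSO at CD86, and no list held a region at CD14 or MRC1; for CSF3R the centred ATRA ratio turned from -0.63 by fold to 0.39 by pileup.

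Away from the starts, CSF2RB had the most regions higher in ATRA. It had 6 of its 12 shared regions higher in ATRA and none lower, against 17.3% and 7.5% near any coding gene. An intronic region (chr22:36921294-36922400) whose edge lies 7666 bp inside the gene had folds of 6.09 (4.86 to 7.53) in DMSO, 19.4 (17.2 to 21.9) in ATRA, 2.62 (1.85 to 3.6) in Corin and 4.89 (3.84 to 6.14) in the combination. ATRA was above DMSO and Corin below it, with no overlap of the intervals, and the intervals of the combination and DMSO overlapped: the centred ratios over DMSO were 2.57, 0.457 and 0.783, and that of the combination over ATRA was 0.307.

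A downstream CSF2RB region (chr22:36965581-36966204), 51953 bp from the start, was high in the combination too. Its folds were 4.28 (3.26 to 5.51), 15 (13.2 to 17.0), 4.37 (3.38 to 5.57) and 11.0 (9.68 to 12.3), above the others in both lists with ATRA. The centred ratios were 2.83 with ATRA, 1.09 with Corin and 2.50 with both. The nearest coding start is that of TEX33, so its link to CSF2RB is by distance alone. A further region (chr22:36969691-36970047) had folds of 5.58, 11.1, 6.53 and 11.6 and was likewise above the others in both lists with ATRA. Of the 13 CSF2RB regions in DMSO, 5 weaker ones were not called in Corin and 5 not in the combination. Over all coding genes 27.6% and 30.8% were lost. A region 53312 bp downstream was called in Corin alone, with a fold of 7.18.

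CSF1R had 3 of its 17 shared regions higher in ATRA and 1 lower, against 17.3% and 7.5% near any coding gene. Besides its start, the region downstream at chr5:150034848-150035731 had folds of 10.1, 22.8, 7.92 and 7.97, high in ATRA only, with a centred ratio of the combination over ATRA of 0.425. A region at chr5:150142462-150143902, inside the neighbouring gene PDGFRB, had 5.65 (4.87 to 6.52), 14.9 (13.3 to 16.7), 10.7 (9.80 to 11.7) and 9.82 (8.78 to 10.9). Here all treated lists were above DMSO, with centred ratios of 2.13, 2.02 and 1.70, and the combination lay at -1.34 (log2) relative to the sum of the single changes. The region over the end of the gene (chr5:150052162-150053752) had 8.16, 5.66, 10.2 and 8.39 and was lowest in ATRA, with a centred ratio of 0.56. A region at chr5:150022038-150022684, inside HMGXB3, was held by DMSO at 2.97 and by Corin at 9.51, and by neither list with ATRA. Of the 23 CSF1R regions in DMSO, 8 were lost in the combination, where 30.8% were lost over all coding genes.

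CSF3R had 0 of its 9 shared regions higher in ATRA, against 17.3% near any coding gene. The 1 lower region was the start, whose direction turned by pileup. Of the 14 CSF3R regions in DMSO, 5 were lost in ATRA, where 24.7% were lost over all coding genes. Of the 10 regions in both DMSO and Corin, 2 were higher and 0 lower in Corin, against 6.19% and 10.1%. A region 23577 bp from the CSF3R start, beyond the gene's end (chr1:36458757-36459336), had folds of 5.94, 5.37, 10.9 and 8.08. It was highest in Corin with a centred ratio of 1.94, a log2 ratio of 0.96 by fold and 0.67 by pileup. Its summit lies inside the neighbouring gene MRPS15, whose start is also the nearest, so its link to CSF3R is by distance alone. The region 3394 bp upstream of the start had 9.25, 10.4, 10.9 and 12.4, and no comparison with DMSO passed the limit. A region 45527 bp upstream was in the DMSO list alone, at 4.79, and one 28178 bp upstream in both lists with ATRA, at 2.99 and 4.57.

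Among the Fc receptors, the window of FCGR2A held a region at chr1:161561150-161561713, nearer to the start of FCGR3A, with folds of 9.71 (8.14 to 11.5), 27.1 (24.2 to 30.4), 11.7 (9.96 to 13.6) and 19.4 (17.2 to 21.7). It was highest in ATRA, at percentile 99.0 by ATRA fold among the regions in all 4 lists, with centred ratios of 2.26, 1.28 and 1.94. A region at chr1:161554450-161555346 was highest in Corin, with 5, 4.55, 8.91 and 5.83. The strongest DMSO region outside the start, at 34243 bp, had 21.5, 18.2, 20.6 and 16.4 and passed the limit in no comparison with DMSO. Of the 16 FCGR2A regions in both DMSO and ATRA, 2 were higher and 2 lower in ATRA, against 17.3% and 7.5% near any coding gene. The largest fall in ATRA had a centred log2 ratio of -0.74, and the largest in the combination -0.61. FCGR1A had only 2 regions in all 4 lists, both downstream, and the stronger one had 7.25, 10.1, 6.86 and 9.17. A region 28973 bp upstream was in the ATRA list alone, at 9.29. Both Fc receptor loci have near-identical copies elsewhere in the genome, whose reads may be shared, and the part of this in the values was not tested.

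CD14, the co-receptor for lipopolysaccharide, had 12 regions in both DMSO and ATRA. None of these was higher in ATRA and 2 were lower, against 17.3% and 7.5% near any coding gene. Downstream of the gene, 3932 bp from the start, a region (chr5:140628767-140629243) had folds of 2.73 (2.24 to 3.30) in DMSO, 7.90 (7.13 to 8.74) in Corin and 2.91 (2.45 to 3.43) in the combination, and was not called in ATRA. Corin alone was high: its centred ratio over DMSO was 3.07, and that of the combination over Corin was 0.34. The region 1536 bp from the start, just past the gene's end, was the nearest in all 4 lists to it on that side and had 13.1, 19.5, 10.8 and 13.5. A region at chr5:140591586-140592344 had 8.61, 5.56, 10.9 and 7.40 and was lowest in ATRA, with a centred ratio of 0.521. In the combination 6 of 18 CD14 regions were absent from DMSO, against 15.7% near any coding gene. The strongest of the 6 by p lay 36473 bp downstream, with 2.68 in Corin and 5.55 in the combination.

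CD86 held an intronic region (chr3:122085384-122086537) that was lower in every treatment: 9.06, 6.62, 5.59 and 3.55, with centred ratios of 0.59, 0.655 and 0.382. DMSO was highest here, while it was lowest at the start. Another intronic region (chr3:122111589-122112422) was low in Corin alone, with 9.35, 10.6, 5.66 and 9.51. One more (chr3:122091323-122093047) had 13.5, 12.5, 17.9 and 11.2, highest in Corin, although its summits in the 4 lists lay up to 839 bp apart.

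CD163 had few regions and large differences. A region 38959 bp upstream (chr12:7542736-7543649) had folds of 3.19 (2.33 to 4.27) in DMSO, 18.7 (16.1 to 21.5) in ATRA and 9.84 (8.32 to 11.6) in the combination, and was not called in Corin. The pileups were 43, 188 and 146. Its centred ratio of 4.73 for ATRA was the largest over DMSO of any of the 149 regions, and the combination stood at 3.01 over DMSO and 0.642 of ATRA.

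An exonic CD163 region (chr12:7498600-7499181), 4596 bp inside the gene, went with the other compound. It had 5.51 (4.35 to 6.89), 4.75 (3.51 to 6.28), 17.1 (15.3 to 19.1) and 15.4 (13.7 to 17.3), high in both lists with Corin. The centred ratios over DMSO were 0.695, 3.30 and 2.73, and that of the combination over ATRA was 3.96. Between it and the upstream one, a region 8634 bp upstream was strong in every list, at 19.4, 16.8, 24.2 and 24.3. It was called higher in the combination over ATRA, at a centred log2 ratio of 0.82 (0.53 without centring). Within this locus, then, the upstream region was high in the lists with ATRA and the exonic one in the lists with Corin. By its highest peak the start was called higher in Corin and in the combination, the latter not by the mean over its peaks.

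MRC1, the mannose receptor, had almost no called regions. An intronic region (chr10:17851625-17852018) was held by DMSO at 5.44 (4.28 to 6.81) and by ATRA at 12.2 (10.1 to 14.5), a centred ratio of 1.81, and by neither list with Corin. The other regions were in ATRA alone, at 3.26, and in Corin alone, at 2.12, and the combination had none in this window. CD68 was the opposite: 9 of its 11 regions were in all 4 lists, none was called higher or lower in any comparison, and the other 2 were in ATRA alone. Its window is dense in genes, and only 1 of the 11 regions has the CD68 start as its nearest.

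**Figure D3:**
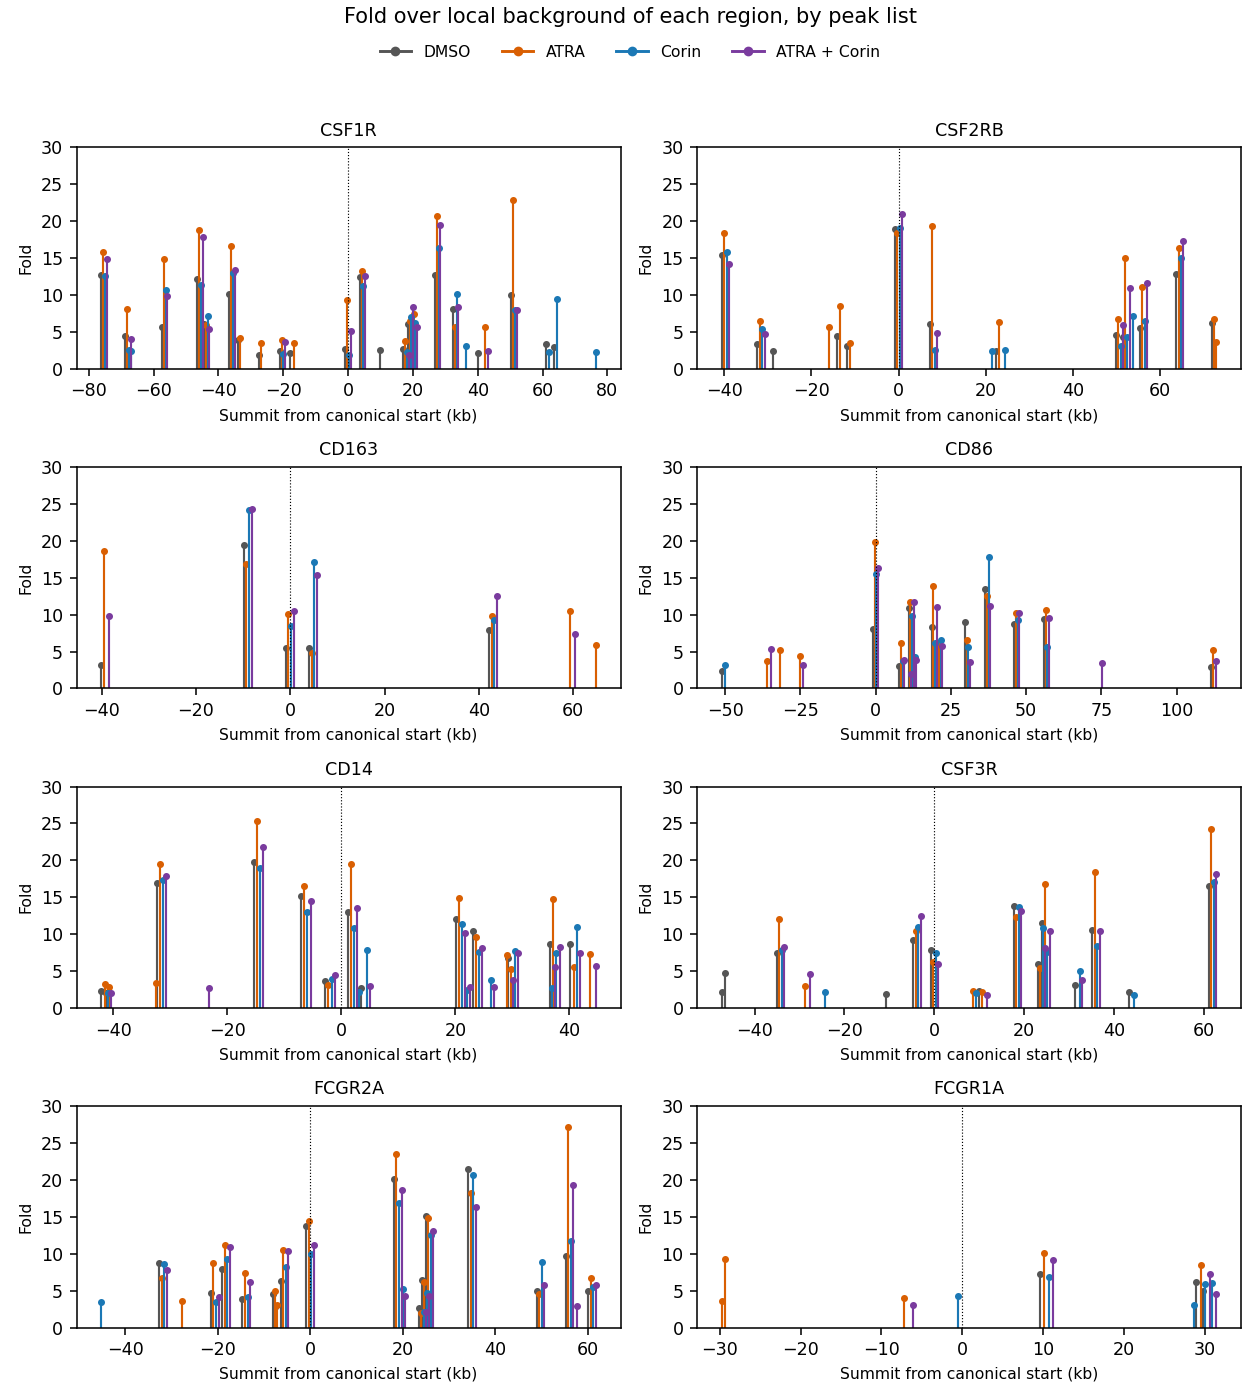
Fold over local background (vertical axis) of each region against the distance of its summit from the canonical start in kb (horizontal axis). There is 1 panel per gene, except CD68 and MRC1, which are not drawn. Each peak list has 1 colour, with a small sideways shift between lists. The CD163 panel shows the upstream region at 18.7 in ATRA and the exonic region at 17.1 in Corin; the CSF2RB panel shows the intronic region at 19.4 in ATRA and 4.89 in the combination; for the CSF3R start the centred ATRA ratio turned from -0.63 to 0.39 by pileup.

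Across the 10 genes, ATRA gave more higher than lower regions, close to the share over all coding genes. Of the 94 regions in both lists, 15 were higher, 16.0% (9.92 to 24.7), against 17.3% of regions near any coding gene, and 7 were lower, 7.45% (3.65 to 14.6), against 7.50%. Without centring the split was 32 higher and 1 lower, and by pileup 18 and 16, so it depends on the scale. Here and in the comparisons below, counts by pileup or without centring cover the member regions only. The shares over all coding genes were not computed on those scales. Of 115 regions in ATRA, 21 were gained, 18.3% (12.3 to 26.3), against 22.7%. Of 109 in DMSO, 15 were lost, 13.8% (8.52 to 21.5), against 24.7%. The higher regions lay in CSF2RB (6), CSF1R (3), FCGR2A and CD86 (2 each), and CD163 and MRC1 (1 each). The lower ones lay in CD14 and FCGR2A (2 each), and CD86, CSF1R and CSF3R (1 each), the last being the start that turned to 0.39 by pileup.

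With Corin the members stood above the share of all genes on the higher side. Of 89 regions in both lists, 11 were higher, 12.4% (7.04 to 20.8), against 6.19%, and 4 were lower, 4.49% (1.76 to 11.0), against 10.1%. By pileup 20 were higher and 5 lower, with no share over all coding genes to set beside them. The median centred log2 ratio was 0.12 for the members and 0.01 for all. Of 105 regions in Corin, 16 were gained, 15.2% (9.60 to 23.3), against 17.0%, and of 109 in DMSO 20 were lost, 18.3% (12.2 to 26.6), against 27.6%. The higher regions were spread over 7 genes: CSF3R, CD86, CSF1R and CD163 with 2 each, FCGR2A, CD14 and CSF2RB with 1 each.

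The combination against DMSO had 12 of 87 regions higher, 13.8% (8.07 to 22.6), against 8.17%, and 2 lower, 2.30% (0.633 to 8), against 11.1%. By pileup 17 were higher and 8 lower. Gains were 16 of 103, 15.5% (9.79 to 23.8), against 15.7%, and losses 22 of 109, 20.2% (13.7 to 28.7), against 30.8%. CD163 held 4 of the higher regions, FCGR2A 3, CSF1R and CSF2RB 2 each and CD86 1.

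Against ATRA alone, the combination had 12 of 92 regions higher, 13% (7.62 to 21.4), against 5.84%, and 9 lower, 9.78% (5.23 to 17.6), against 18.8%. Without centring this split turned to 3 higher and 17 lower, and by pileup it was 19 and 7. Gains were 11 of 103, 10.7% (6.07 to 18.1), against 14.2%, and losses 23 of 115, 20% (13.7 to 28.2), against 27.7%. CD14 and CD163 had 3 higher regions each, and CSF1R had 4 lower ones.

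Against Corin alone, 10 of 88 were higher, 11.4% (6.29 to 19.7), against 9.38%, and 5 lower, 5.68% (2.45 to 12.6), against 8.47%. By pileup 10 were higher and 15 lower. Gains were 15 of 103, 14.6% (9.03 to 22.6), against 19.5%, and losses 17 of 105, 16.2% (10.4 to 24.4), against 24.2%. CSF2RB had 4 of the higher regions. The 5 comparisons share lists and are not independent, and regions of 1 gene share their locus.

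**Figure D4:**
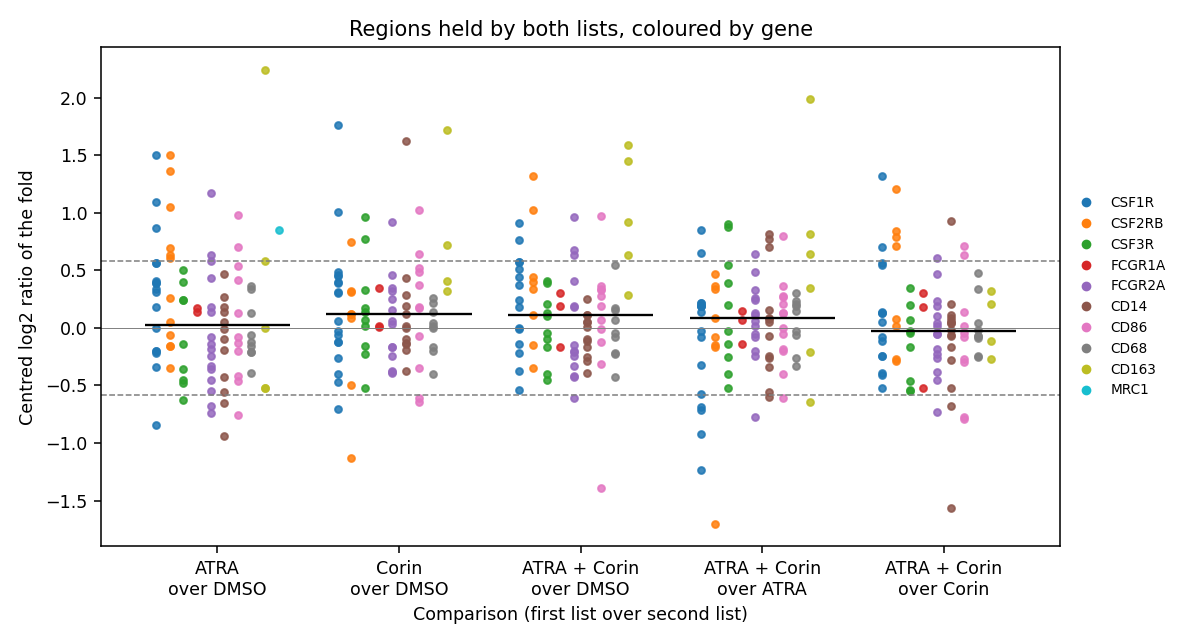
Centred log2 ratio of the fold (vertical axis) of every region held by both lists, for the 5 comparisons, coloured by gene; black lines are medians and dashed lines mark 1.5 times. The highest point for ATRA over DMSO is the upstream CD163 region at 2.24; the CSF3R start at -0.63 in that comparison turned to 0.39 by pileup.

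The regions were shared and placed alike more often than not. All 4 lists held 81 of the 149, 54.4%, against 42.5% near any coding gene. ATRA alone held 12 (8.05% against 11.2%), DMSO alone 7 (4.70% against 10.1%), Corin alone 11 (7.38% against 7.79%) and the combination alone 4 (2.68% against 3.62%). DMSO and ATRA but no list with Corin held 10 (6.71% against 5%), and both lists with ATRA but no other 8 (5.37% against 3.22%). Both lists with Corin but no other held 4 (2.68% against 1.42%). In the 81 shared regions the summits of the lists lay a median of 19.0 bp apart, 64 within 50 bp and 8 beyond 200 bp, the widest being 1180 bp in a CD86 intron. Summit distances were not computed for regions near other coding genes. By position, 54 summits were upstream of the gene, 60 downstream, 25 in introns and 10 in exons. The nearest coding start was the member's own for 76, and 47 summits lay inside another coding gene.

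The summit windows of 200 bases were searched on both strands, and the motif letters are a description of sequence and not of binding. AP-1 (TGANTCA) matched 24 of 149 windows, 16.1%, against 11.7% of windows near any coding gene. PU.1 (GAGGAAGT) matched 14, 9.40% against 6.57%, C/EBP (TTGCNNAA) 18, 12.1% against 14.0%, and RUNX (TGTGGT) 21, 14.1% against 20.4%. The GFI1 consensus and retinoic acid receptor direct repeats with spacers of 1, 2 or 5 bases matched 0, against 1.56%, 0.0721%, 0.171% and 0.0818%; a count of 0 in 149 allows up to 2.01%.

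Matches differed between the kinds of change, a split of the windows made after the data were seen. Of the 11 regions higher in Corin, 8 held an AP-1 match, including the exonic CD163 region printed above, the CD14 region 3932 bp from the start, the regions of the CSF1R window inside HMGXB3 and PDGFRB, the region of the CSF3R window inside MRPS15, and the region of the FCGR2A window highest in Corin. Over all coding genes, 56.2% of the 4303 regions higher in Corin held one. Neither the 4 regions lower in Corin nor the 20 lost held an AP-1 match, against 5.48% and 6.36%. The 16 regions gained in Corin did not share the high count: 2 held a match, against 20.4%. In the combination 2 of the 12 higher regions held one, against 13.3%. Of the 15 higher in ATRA 3 held one, against 7.37%, and of the 7 lower in ATRA 3 did, against 28.7%. PU.1 matched 2 of the 15 higher in ATRA, against 15%, and 0 of the 11 higher in Corin, against 4.46%.

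Other surface and signalling genes of the same cells, a list of 40 including further Fc, Toll-like, chemokine and scavenger receptors, was described in the same way. A region within 1 kb of the start was called for 34, and the counts that follow cover starts held by both lists compared. In ATRA 1 of 27 was higher, LILRB2, an inhibitory leukocyte receptor, from 4.99 to 10.9, and 1 lower, CD4, from 9.88 to 8.15 with a centred ratio of 0.665. In Corin 1 of 26 was higher, the chemokine receptor CCR2, from 5.17 to 8.31, and 1 lower, FCER1G, the signalling chain of Fc receptors, from 8.34 to 5.13. In the combination 2 of 27 were higher, the lectin CLEC4E, from 4.64 to 8.35, and the complement receptor C5AR1, from 9.15 to 16.0, and 0 were lower. The shares over all coding genes are those given above: 2.93% higher and 2.88% lower in ATRA, 1.35% and 1.14% in Corin, 2.16% and 1.39% in the combination. Outside these counts, 3 starts were called in ATRA and not in DMSO: CD300E, an activating myeloid receptor, at 10.5 in ATRA, 3.33 in Corin and 5.29 in the combination, TREM2, a lipid-sensing receptor, at 9.33 in ATRA and 2.73 in the combination, and the scavenger receptor MARCO, at 3.02 in ATRA alone. LILRB4 was called in both lists with Corin, at 3.25 and 2.81, CSF2 and CSF3 in Corin alone, at 3.75 and 2.29, and CD40 in DMSO alone, at 3.70. The median centred log2 ratios were -0.10, -0.04 and 0.08 in the 3 treatments, against -0.17, 0.07 and 0.04 over all starts.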

How the data were processed

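ATAC-seq of U-937 was analysed in 8 samples, 2 per treatment, grouped per the labels, with 1 deposited peak list per treatment. Per the file names, the lists come from a naive overlap and were filtered; that each combines both samples is an inference from this. The submitters' processing notes name cutadapt, Bowtie2, SAMtools, Picard, MACS2 and hg38, without versions. Peak ends lay inside the hg38 lengths of all 24 chromosomes. In the deposited lists the fold column is a ratio over local background, the columns for p and for q hold −log10 values, and the summit is a distance in bp, read from the layout and the values. These scores are the authors'. No per-sample columns were left out (0), and the read depth per sample is unknown.

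Peaks of a list that overlap were joined to regions, and regions of the lists overlapping by at least 1 bp to union regions, in Python 3.11.15 with pandas 2.3.3, numpy 2.4.6 and scipy 1.17.1. The pileup was solved from fold, taken as (pileup + 1) over (background + 1), and p, taken as a Poisson probability; it was whole within 0.05 for 99.97% to 99.98% of peaks. Shares carry 95% Wilson intervals, and folds the exact Poisson interval of the pileup. Log2 ratios of deposited folds were centred on the median over regions in all 4 lists. Regions within 1 kb of the canonical start were taken as start regions, the highest by fold where there were several.

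The members and lists were chosen with earlier results of these data known. Named regions were, by rule, the start region, the strongest other DMSO region, the largest rise and fall past 1.5 times for each treatment among regions in all 4 lists, and the strongest gained and lost region. Not all regions that the rule named are described above. Those left out include a CSF1R fall in Corin, at a centred log2 ratio of -0.70, and a CSF2RB rise in Corin, at 0.75. Regions described outside this rule were chosen after their values were seen: the CSF1R regions at chr5:150034848-150035731 and chr5:150022038-150022684, the CSF2RB region at chr22:36969691-36970047, the CSF3R region 3394 bp upstream and the CD14 region 1536 bp from the start. Motif matches by kind of change were counted after the data were seen. The recovery of pileups was tested on simulated counts. The calls were tested on copies of part of the real DMSO list with planted rises and losses. Those copies had no noise between lists, unlike the data. Alternatives were other overlaps, merging, windows, limits and scalings.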

Additional observations from a re-analysis of the deposited data

How the results depend on the processing

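No paired analysis was possible because each treatment has 1 list with no value per sample; for the same reason no replicate could be left out. Of 160 alternative shares, all of member regions only, 134 stayed within the 95% Wilson interval of the main share. Among these, counts still moved by over 1.5 times for gains of the combination against ATRA, from 11 to 18 with lists of equal length, for regions higher in that comparison, from 12 to 19 by pileup, and for regions lower in the combination against DMSO, from 2 to 1 under 4 settings; windows of 10 kb and nearest starts count fewer regions by construction. With lists of equal length, gains in ATRA were 11.3%, losses 11.5% in Corin, 11.5% in the combination and, of the combination against ATRA, 12.4%. In windows of 10 kb, gains in ATRA were 12.1%. At −log10 q of at least 5, losses were 8.08% in ATRA and 9.47% in the combination against Corin. With regions nearest to a member's start, losses in Corin were 27.3%. Without centring, higher and lower shares were 34.0% and 1.06% in ATRA, and 3.26% and 18.5% in the combination against ATRA; centring within strength classes gave 4.35% lower for the latter. By pileup, 17.0% were lower in ATRA, 22.5% higher in Corin, 9.20% lower in the combination, and 17.0% lower in the combination against Corin. At 2 times, higher and lower shares were 7.45% and 0.0% in ATRA, 5.62% and 1.12% in Corin, 1.09% and 2.17% in the combination against ATRA, 2.27% and 1.14% against Corin, and 4.6% higher in the combination against DMSO. Of 279 alternative values for named regions, 236 stayed within the counting interval, 42 moved beyond it and 1 reversed, the CSF3R start in ATRA (0.39 by pileup). The cause was not tested. Of the calls, the pileup reversed 1 of 22 in ATRA and 1 of 21 in the combination against ATRA, and the other scalings none. The depth per sample is unknown, and some calls rest on a pileup as low as 20, where counting error is widest.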
